A study of Mus musculus with 12 samples.

Results

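The 10 genes described here are astrocyte genes, chosen by symbol from the 24062 rows of a raw count table. Of these, 5 are genes that astrocytes raise in reactive gliosis (Gfap, Vim, Serpina3n, Cd44 and Lcn2) and 5 are genes that mark astrocytes at rest (S100b, Aldh1l1, Aqp4, Slc1a2 and Slc1a3). All 10 had counts, and 9 passed the filter on low counts that left 15440 genes for testing. Lcn2 did not pass it. RNA came from the cortex of mice aged 9 months in 4 groups of 3 libraries each. WT mice carried no tau transgene and both copies of Tia1. Tia1+/- mice had 1 copy of Tia1, which encodes an RNA binding protein of stress granules. PS19 mice (P301S Tia1+/+) carried a human MAPT transgene with the P301S mutation under the Prnp promoter and both copies of Tia1, and P301S Tia1+/- mice carried the transgene with 1 copy of Tia1. By the study's methods, PS19 mice of mixed B6;C3 background were crossed with Tia1-/- mice on C57BL/6J, the offspring were crossed with each other to give littermates, mice with end-stage signs were left out, and the P301S mice were male except where the study says otherwise. The study's aim with these libraries was to see how tau pathology alters cortical transcripts and whether less Tia1 modifies this.

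Astrocytes clear glutamate, buffer water and potassium and supply neurons with metabolites. In tauopathy, as after injury, they become reactive: the cytoskeleton is rebuilt around the intermediate filament proteins GFAP and vimentin, and secreted proteins such as the protease inhibitor encoded by Serpina3n are made in larger amounts. Signals for this include cytokines that act through gp130 and STAT3, and molecules released by activated microglia. The cortex of PS19 mice is known for such gliosis as tau pathology advances. In bulk RNA, fewer cells of a type and less RNA per cell cannot be told apart.

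Total counts were between 11978962 and 19146484 per library, a 1.60-fold range. The titles of the libraries set the groups. For the groups with 1 copy of Tia1, the genotype field of the labels gives the tau genotype of the other group, so following that field would swap the names Tia1+/- and P301S Tia1+/- below. The libraries are called by their titles throughout. Mapt was between 256 and 413 CPM in WT, 344 and 502 CPM in Tia1+/-, 439 and 462 CPM in PS19 and 336 and 357 CPM in P301S Tia1+/- libraries, so that the libraries titled P301S Tia1+/- lay below all PS19 libraries and within the WT range. How far reads of the human transgene count toward mouse Mapt is not given in the sources used here, and directions that rest on the names of these groups carry this limit. Xist, which is transcribed from the inactive X chromosome, was at 278 ± 78.8 CPM (counts scaled to library size, mean ± SD, n = 3) in Tia1+/- and 284 ± 29.2 CPM in P301S Tia1+/- libraries, against 0.242 ± 0.218 CPM in WT and 0.612 ± 0.155 CPM in PS19 libraries. The Y-linked gene Ddx3y had the opposite pattern, with at most 0.119 CPM in P301S Tia1+/- and at least 119 CPM in PS19 libraries. Tia1 genotype and this sex-linked difference therefore cannot be told apart in any comparison across Tia1 genotypes. High Xist with almost no Ddx3y is the pattern of female tissue, while the methods give the P301S mice as male except where noted. The study ascribes the difference between Tia1+/- and WT mice to Tia1. By its PCR of separate, younger mice, Xist was higher in Tia1+/- than in WT mice of both sexes. Ddx3y was lower in Tia1+/- males there. The cause of the difference in the present libraries was not tested here. Tia1 itself was at 82.0 ± 10.3 CPM in WT, 68.0 ± 10.3 CPM in Tia1+/-, 73.5 ± 3.87 CPM in PS19 and 74.7 ± 2.76 CPM in P301S Tia1+/- libraries, and the ranges of these groups overlap. Some libraries stood apart. The 13 olfactory bulb markers, a list chosen with earlier results of these data known, summed to 1854 CPM in WT replicate 1 and to between 1313 and 1422 CPM in the P301S Tia1+/- libraries, against 428 and 548 CPM in the other WT libraries, 369 to 483 CPM in Tia1+/- and 283 to 373 CPM in PS19 libraries, where at most 1 of them was at 0 in any library. Their mean log2 CPM was 6.52, 4.35 and 2.91 in WT and 1.29 to 3.70 in Tia1+/- libraries. It was 0.931 to 1.71 in PS19 and 5.91 to 6.18 in P301S Tia1+/- libraries. WT replicates 2 and 3 also lay above all PS19 libraries, with Omp at 18.9 and 4.03 CPM against at most 0.560 CPM. Fits with this level as a covariate extrapolate where groups do not overlap in it. That holds for PS19 against WT and for P301S Tia1+/- against PS19 or Tia1+/-. The 7 striatum markers summed to 1674 CPM in Tia1+/- replicate 3 and to between 106 and 294 CPM in the other libraries. The 8 markers of activated microglia summed to 191 CPM in PS19 replicate 1 and to between 73.8 and 110 CPM in the other libraries, and none of them was at 0 in any library. Neutrophil markers, another possible source of Lcn2, summed to at most 9.45 CPM. That was in PS19 replicate 2, which also had the highest Lcn2 (10 counts). The part of neutrophils in the Lcn2 counts was not tested.

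Astrocyte transcripts were abundant in these libraries. Scaled to the length of the exons, the mean level over the 12 libraries was highest for Slc1a2, the main glutamate transporter of the forebrain, at 204 CPM per kb. It was followed by S100b at 92.2, Slc1a3 at 79.3, Gfap at 40.8, Aqp4 at 28.0, Aldh1l1 at 16.3, Serpina3n at 7.45 and Vim at 6.58 CPM per kb. Cd44 at 0.478 and Lcn2 at 0.0892 CPM per kb were the lowest. Over the 12 libraries the ranges of neighbours in this order overlapped, except those of Aldh1l1 and Serpina3n and those of Vim and Cd44. In WT libraries the mean of Aqp4 (32.9 CPM per kb) was above that of Gfap (30.6 CPM per kb), and in PS19 libraries Gfap (69.9) was above Aqp4 (23.3).

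No tested member passed an adjusted p of 0.05 (edgeR quasi-likelihood test, Benjamini-Hochberg over 15440 genes) in any of the 10 comparisons fitted. The background of such calls was itself low in these edgeR fits. Over all tested genes the share called was 0% for PS19 against WT, 0.240% for P301S Tia1+/- against PS19, 0.712% for Tia1+/- against WT, 0% for P301S Tia1+/- against Tia1+/-, 1.31% for P301S Tia1+/- against WT and 0.0712% for PS19 against Tia1+/-. It was 0% for P301S tau averaged over the Tia1 genotypes, 0.440% for Tia1+/- averaged over the tau genotypes, 0.00648% for the interaction of tau and Tia1 and 0.395% for any difference among the 4 groups. At an unadjusted p under 0.05, the members numbered 0 of 9 for PS19 against WT (16.3% of all tested genes), 2 for P301S Tia1+/- against PS19 (19.3%), 1 for Tia1+/- against WT (19.1%) and 5 for P301S Tia1+/- against Tia1+/- (15.6%). They numbered 1 for P301S Tia1+/- against WT (18%), 2 for PS19 against Tia1+/- (4.81%), 1 for tau averaged (8.39%), 1 for Tia1+/- averaged (15.6%), 5 for the interaction (22.9%) and 2 for any difference (22.2%). DESeq2 made many more calls over all genes. Its Wald test called S100b in P301S Tia1+/- against PS19 (with 805 genes called in all) and against Tia1+/- (416 genes). It also called S100b in the interaction (1206 genes). For any difference among the groups, DESeq2's likelihood ratio test called S100b and Serpina3n (1834 genes). DESeq2 called no member in the other comparisons. Among these, its Wald test called 431 genes for PS19 against WT. The study, which used DESeq2 as well, also reports changed genes for that comparison at the same threshold.

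**Figure D1:**
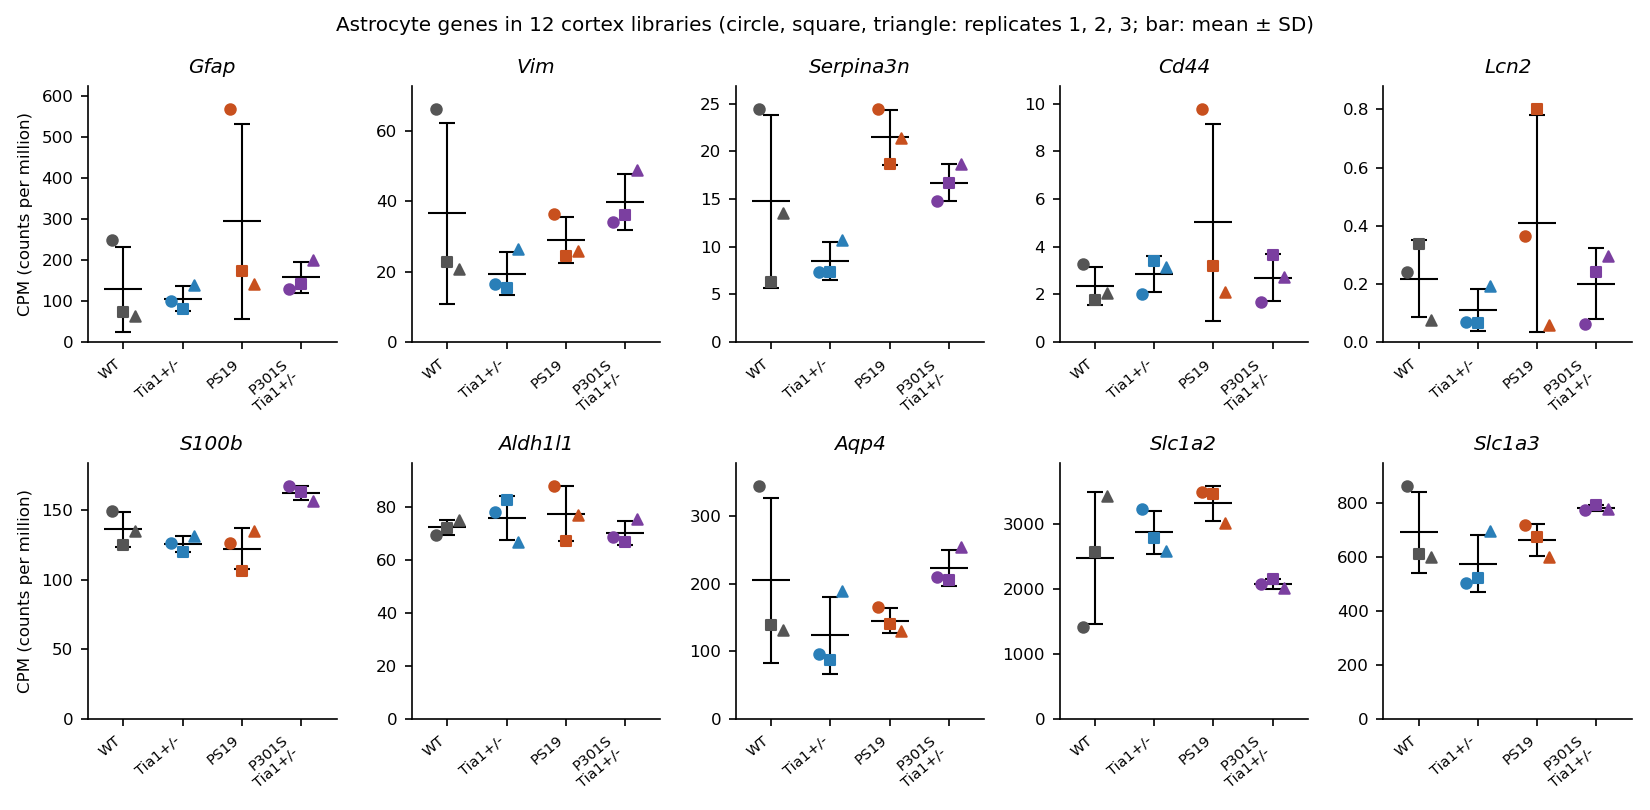
Level of each of the 10 genes in CPM (y axis, linear, from 0) in the 4 genotype groups (x axis). Each point is 1 library, with circles, squares and triangles for replicates 1, 2 and 3, and bars give the mean and SD of 3 libraries. Gfap and Cd44 are set apart in PS19 replicate 1 (569 and 9.77 CPM), and Vim and Aqp4 in WT replicate 1 (66.2 and 345 CPM).

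Gfap, on chromosome 11 (102887336 to 102900912, minus strand, GRCm38), encodes the intermediate filament protein by which reactive astrocytes are usually recognised. Its level was 249, 73.4 and 64.4 CPM in the WT libraries, 99.9, 79.9 and 139 CPM in Tia1+/-, 569, 173 and 142 CPM in PS19 and 130, 143 and 202 CPM in P301S Tia1+/- libraries. PS19 replicate 1 was far above all others, and WT replicate 1 was above every library but that one. The PS19 and WT ranges therefore overlap, although the other PS19 libraries lay above the other WT libraries. The mean was 295 ± 238 CPM in PS19 and 129 ± 104 CPM in WT libraries, a log2 fold change of 1.19 ± 0.591 (SE), with an adjusted p of 0.340 by edgeR. The libraries that stand apart pull this estimate in opposite directions. Without WT replicate 1 it was 2.11, without PS19 replicate 1 it was 0.30, and with both left out it was 1.20 at an adjusted p of 0.453. In P301S Tia1+/- libraries Gfap averaged 158 ± 38.3 CPM, a log2 fold change of -0.90 ± 0.586 against PS19 (adjusted p of 0.415, edgeR), which was -0.02 without PS19 replicate 1 and -3.10 when the bulb marker level was a covariate (adjusted p of 0.0512, edgeR). Gfap did not overlap between PS19 and Tia1+/- libraries, the closest values being 142 and 139 CPM.

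Cd44, a receptor for hyaluronan that reactive astrocytes near vessels and scars carry, is on chromosome 2 (102811141 to 102901665, minus strand). It had between 21 and 188 counts per library. Its level was 3.28, 1.78 and 2.05 CPM in WT, 2.0, 3.42 and 3.16 CPM in Tia1+/-, 9.77, 3.20 and 2.11 CPM in PS19 and 1.70, 3.66 and 2.74 CPM in P301S Tia1+/- libraries. As for Gfap, the high value was that of PS19 replicate 1, and the other 11 libraries spanned a narrow range. The log2 fold change of PS19 against WT was 1.09 ± 0.532 (adjusted p of 0.332, edgeR) and was 0.16 without PS19 replicate 1. For P301S Tia1+/- against PS19 it was -0.91 ± 0.520 (adjusted p of 0.357, edgeR) and 0.00 without that library. PS19 replicate 1 also held 279 counts of Itgax and 228 of Clec7a, genes of activated microglia named here after their values were seen, against 27 and 20 in PS19 replicate 2 and at most 11 and 15 in the libraries of the other groups. The part of these cells in its Gfap and Cd44 levels was not tested.

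Serpina3n, the mouse gene most often used to mark reactive astrocytes beside Gfap, lies on chromosome 12 (104406729 to 104414329, plus strand) in a cluster of near-identical serpin genes. The other cluster members had too few counts to be tested, among them Serpina3g with at most 7 and Serpina3f and Serpina3i with at most 2 counts per library. How reads shared between the copies were counted is not given in the sources used here. Serpina3n was at 24.4, 6.34 and 13.5 CPM in WT, 7.38, 7.36 and 10.8 CPM in Tia1+/-, 24.4, 18.7 and 21.4 CPM in PS19 and 14.8, 16.7 and 18.7 CPM in P301S Tia1+/- libraries. The PS19 and P301S Tia1+/- libraries each lay above all 3 Tia1+/- libraries, and WT replicate 1 lay level with the highest PS19 library. Relative to the mean it had the smallest SD of the reactive genes within both tau groups, with means of 21.5 ± 2.89 CPM in PS19 and 16.7 ± 1.92 CPM in P301S Tia1+/-, against 14.8 ± 9.10 CPM in WT and 8.5 ± 1.96 CPM in Tia1+/- libraries. The log2 fold change was 0.54 ± 0.359 for PS19 against WT (adjusted p of 0.469, edgeR) and 1.12 without WT replicate 1. It was 0.98 ± 0.366 for P301S Tia1+/- against Tia1+/- (unadjusted p of 0.0221, adjusted p of 0.257, edgeR), and -9.01e-07 when the bulb marker level was a covariate. Averaged over the Tia1 genotypes, P301S tau gave 0.76 ± 0.256 (unadjusted p of 0.0130, adjusted p of 0.476, edgeR), between 0.58 and 1.04 with each library left out in turn.

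Vim, on chromosome 2 (13573927 to 13582826, plus strand), encodes vimentin, the partner of GFAP in the filaments of reactive and immature astrocytes, which endothelium and meninges express as well. It was at 66.2, 22.8 and 20.7 CPM in WT, 16.4, 15.4 and 26.5 CPM in Tia1+/-, 36.4, 24.6 and 26 CPM in PS19 and 34.3, 36.1 and 48.8 CPM in P301S Tia1+/- libraries. WT replicate 1 was the highest, followed by P301S Tia1+/- replicate 3, and the sum of the 7 meningeal fibroblast markers was also highest in these 2 libraries, at 171 and 235 CPM. Across the 12 libraries the correlation of log2 CPM of Vim with Gfap was 0.68, given as a description. In PS19 against WT its log2 fold change was -0.33 ± 0.402 (adjusted p of 0.701, edgeR) and was 0.43 without WT replicate 1. In P301S Tia1+/- against PS19 it was 0.45 ± 0.400 (adjusted p of 0.546, edgeR), and in P301S Tia1+/- against Tia1+/- it was 1.03 ± 0.406 with no overlap of the groups (unadjusted p of 0.0279, adjusted p of 0.267, edgeR). Without WT replicate 1, which also enters the estimate of the spread, the last comparison called 956 genes, among them Vim, Serpina3n and S100b. When the bulb marker level was a covariate, the Vim value in it was -0.58, and in P301S Tia1+/- against PS19 it was -1.56. Meningeal markers summed to 36.6 to 235 CPM in P301S Tia1+/- and 22.3 to 70.0 CPM in Tia1+/- libraries, and their part in the Vim levels was not tested.

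Lcn2, which encodes the secreted iron-trafficking protein lipocalin 2, is on chromosome 2 (32384633 to 32388252, minus strand). It had 1 to 4 counts per library in WT, 1 to 3 in Tia1+/-, 1 to 10 in PS19 and 1 to 5 in P301S Tia1+/- libraries, with sums of 8, 5, 18 and 10 counts. All group ranges overlap. Lcn2 was not tested.

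The 250 bases before the transcription start of 3 reactive genes are shown because Gfap, Cd44 and Serpina3n each had their highest level in PS19 replicate 1, and because STAT3 is a known regulator of Gfap. The homeostatic genes Slc1a2 and Aldh1l1 were also highest in that library, and Serpina3n was there level with WT replicate 1 (24.42 and 24.41 CPM). The sequences are RefSeq sequences of GRCm38.p6, written 5′ to 3′ on the strand of the gene. Capitals mark a match to TTCNNNNGAA, a form with a wider gap than the STAT palindrome TTCNNNGAA. The palindrome TTCNNNGAA itself had no match in the 3 windows. The windows are chr11:102897201-102897450 for Gfap, chr2:102901666-102901915 for Cd44 and chr12:104406458-104406707 for Serpina3n, and the Gfap window lies in an intron of a longer annotated Gfap transcript.
Gfap: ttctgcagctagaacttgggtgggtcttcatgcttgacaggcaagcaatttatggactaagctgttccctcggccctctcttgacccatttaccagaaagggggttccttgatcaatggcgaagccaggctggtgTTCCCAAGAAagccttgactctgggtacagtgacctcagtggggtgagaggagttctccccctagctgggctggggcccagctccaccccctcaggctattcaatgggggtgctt
Cd44: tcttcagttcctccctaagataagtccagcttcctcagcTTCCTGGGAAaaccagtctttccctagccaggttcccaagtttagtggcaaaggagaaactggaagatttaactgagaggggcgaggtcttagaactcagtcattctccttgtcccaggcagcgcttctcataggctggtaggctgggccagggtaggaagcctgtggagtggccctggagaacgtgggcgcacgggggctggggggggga
Serpina3n: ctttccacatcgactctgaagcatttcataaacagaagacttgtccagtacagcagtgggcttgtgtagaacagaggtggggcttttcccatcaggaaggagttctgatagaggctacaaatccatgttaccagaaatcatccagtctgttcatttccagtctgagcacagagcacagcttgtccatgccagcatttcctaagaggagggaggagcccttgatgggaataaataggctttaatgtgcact
The match began 115 bases before the start of Gfap and 211 bases before that of Cd44, and the pattern searched is the same on both strands. None was found in the Serpina3n window. Of all 32851 promoter windows of this length, 5.85% held TTCNNNNGAA. The shorter form TTCNNNGAA, found in 7.02% of all windows, TGANTCA of AP-1 (6.75%) and TATAAA (12.4%) had no match on either strand in the 3 windows. A match is a description of the letters only.

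S100b, a calcium-binding protein of mature astrocytes, lies on chromosome 10 (76253853 to 76261159, plus strand) and came closest to the threshold. It was at 150, 125 and 135 CPM in WT, 127, 120 and 131 CPM in Tia1+/-, 127, 106 and 135 CPM in PS19 and 167, 163 and 157 CPM in P301S Tia1+/- libraries. All 3 P301S Tia1+/- libraries lay above the 9 others. The means were 162 ± 5.28 CPM in P301S Tia1+/- and 123 ± 14.8 CPM in PS19 libraries, which is a log2 fold change of 0.41 ± 0.0997 (unadjusted p of 0.00184, adjusted p of 0.102, edgeR). It was 0.37 ± 0.0997 against Tia1+/- (adjusted p of 0.186, edgeR), and the interaction of tau and Tia1 was 0.52 ± 0.141 (unadjusted p of 0.00351, adjusted p of 0.0828, edgeR). Leaving out any library kept the P301S Tia1+/- against PS19 value between 0.29 and 0.46, and it passed the threshold without WT replicate 1 (adjusted p of 0.0215, edgeR) and in a fit of the 6 libraries compared (adjusted p of 0.0136, edgeR). The P301S Tia1+/- libraries were also those with high olfactory bulb markers, and with that level as a covariate the value was 0.26 and not called.

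Slc1a2 and Slc1a3 encode the glutamate transporters GLT-1 and GLAST, and their differences from PS19 to P301S Tia1+/- libraries had opposite signs. Slc1a2, on chromosome 2 (102658659 to 102790784, plus strand), was at 1409, 2561 and 3434 CPM in WT, 3234, 2780 and 2589 CPM in Tia1+/-, 3489, 3456 and 3006 CPM in PS19 and 2069, 2154 and 2005 CPM in P301S Tia1+/- libraries. The P301S Tia1+/- libraries lay below every library but WT replicate 1, the other library with high olfactory bulb markers. The mean was 2076 ± 74.5 CPM in P301S Tia1+/- and 3317 ± 270 CPM in PS19 libraries, which is a log2 fold change of -0.68 ± 0.245 (unadjusted p of 0.0186, adjusted p of 0.184, edgeR). The comparison passed the threshold without WT replicate 1 (adjusted p of 0.0109, edgeR), and when the bulb marker level was a covariate the value was 0.47. Slc1a3, on chromosome 15 (8634124 to 8710764, minus strand), was at 863, 609 and 600 CPM in WT, 504, 523 and 695 CPM in Tia1+/-, 717, 673 and 601 CPM in PS19 and 774, 792 and 776 CPM in P301S Tia1+/- libraries. WT replicate 1 was here the highest library, and the P301S Tia1+/- libraries came next. Its log2 fold change was 0.24 ± 0.158 for P301S Tia1+/- against PS19 (adjusted p of 0.429, edgeR), 0.44 ± 0.159 against Tia1+/- (unadjusted p of 0.0174, adjusted p of 0.246, edgeR) and -0.06 ± 0.158 for PS19 against WT. When the bulb marker level was a covariate these values were -0.54, -0.19 and 0.50.

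Aqp4, the water channel of astrocyte endfeet on chromosome 18 (15389496 to 15410982, minus strand), was at 345, 139 and 131 CPM in WT, 95.2, 86.3 and 189 CPM in Tia1+/-, 165, 141 and 130 CPM in PS19 and 210, 206 and 254 CPM in P301S Tia1+/- libraries. As for Slc1a3, WT replicate 1 was the highest library and the P301S Tia1+/- libraries came next. Across the 12 libraries, which share these differences in tissue markers, the correlation of log2 CPM was 0.96 for Aqp4 with Vim, 0.96 for Aqp4 with Slc1a3 and -0.80 for Aqp4 with Slc1a2, given as a description. The log2 fold change was -0.50 ± 0.374 for PS19 against WT and 0.12 without WT replicate 1, and 0.62 ± 0.374 for P301S Tia1+/- against PS19 (adjusted p of 0.380, edgeR) with no overlap. The latter was -1.35 when the bulb marker level was a covariate. Aldh1l1, a folate enzyme on chromosome 6 (90486427 to 90600203, plus strand) that is read out in all astrocytes, varied least. Its lowest level was 66.6 CPM and its highest 87.8 CPM, a 1.32-fold range, with means from 70.1 ± 4.51 CPM in P301S Tia1+/- to 77.3 ± 10.4 CPM in PS19 libraries. Its largest log2 fold change between groups was -0.14 ± 0.111, for P301S Tia1+/- against PS19. An antisense gene covers 11.05% of its exon length and another 1.44% of that of Slc1a2, and since the strand setting of the counting is not given in the sources used here, reads of the antisense genes may be included.

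**Figure D2:**
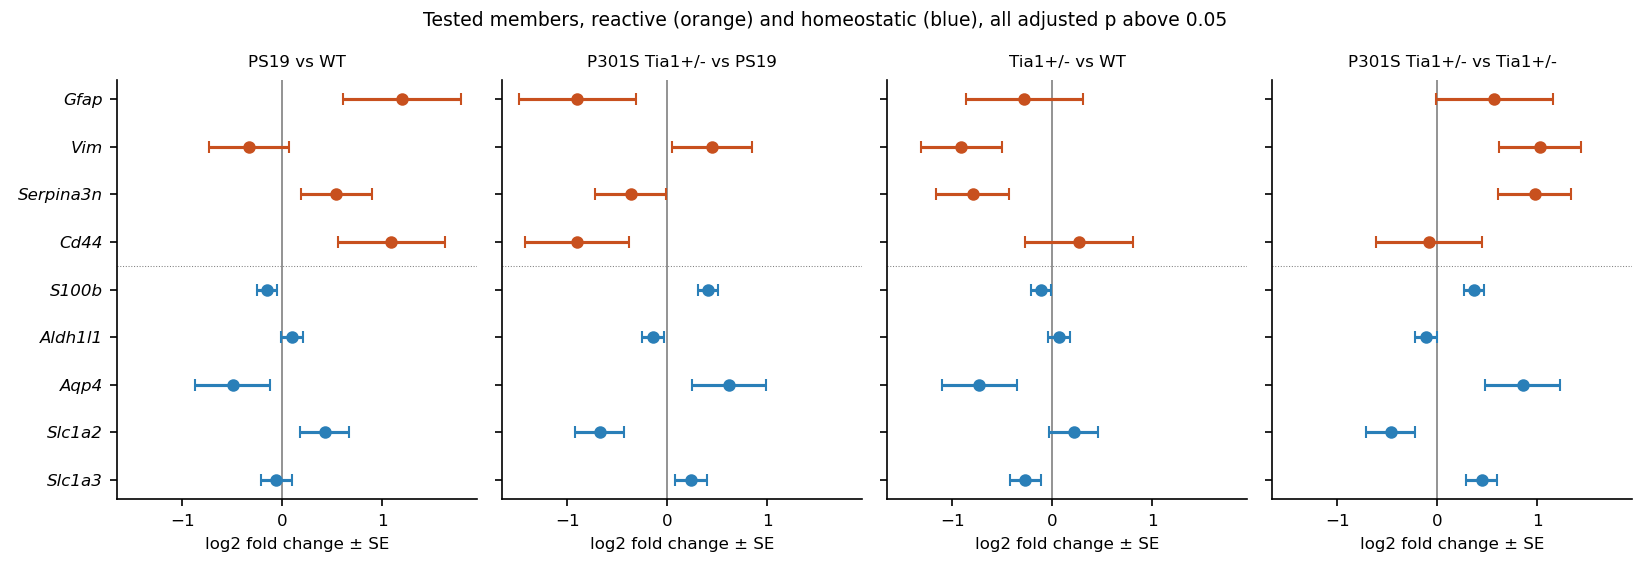
Log2 fold change (x axis, bars are SE) of the 9 tested members (y axis) in 4 comparisons, for reactive genes in orange and homeostatic genes in blue. In PS19 against WT, Gfap (1.19), Cd44 (1.09) and Serpina3n (0.54) lie above 0 and Vim (-0.33) below it, while S100b and Aldh1l1 have the shortest bars.

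For PS19 against WT the median log2 fold change was 0.82 over the 4 tested reactive members and -0.06 over the 5 homeostatic members, beside -0.0066 over all tested genes, and no member had groups that do not overlap, while 20.8% of all tested genes did. Without WT replicate 1 these medians were 1.26 and 0.12, and without PS19 replicate 1 the reactive median was 0.23. For P301S Tia1+/- against PS19 the medians were -0.63 and 0.24, beside 0.0097 over all genes, and the reactive median was -0.0097 without PS19 replicate 1. There 3 homeostatic members were higher without overlap (S100b, Aqp4 and Slc1a3) and 1 was lower (Slc1a2), beside 38.5% of all genes in either direction. For Tia1+/- against WT the medians were -0.54 and -0.12, the first being 0.22 without WT replicate 1, and no member was without overlap, beside 20.0% of all genes. When the bulb marker level was a covariate, PS19 against WT called 1101 of all tested genes, 4 members among them, all higher in PS19 (Gfap at a log2 fold change of 2.97, Vim at 1.25, Aqp4 at 1.0 and Slc1a3 at 0.50). That level did not overlap between PS19 and WT libraries (mean log2 CPM of 0.931 to 1.71 and 2.91 to 6.52). The values of this fit are therefore extrapolations, and no conclusion is drawn from them. Vim had the smallest unadjusted p of Tia1+/- against WT (0.0476, log2 fold change of -0.91 ± 0.408, adjusted p of 0.255, edgeR), and the value was -0.14 without WT replicate 1.

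The comparison within Tia1+/- mice, P301S Tia1+/- against Tia1+/-, held the most members without overlap: Vim, Serpina3n, S100b, Aqp4 and Slc1a3 were higher and Slc1a2 was lower, beside 26.0% of all tested genes. The medians were 0.77 over the reactive and 0.37 over the homeostatic members. Gfap, at 0.57 ± 0.586, overlapped in this comparison. For P301S Tia1+/- against WT, 1 member (S100b) was higher without overlap, beside 23.2% of all genes, and for PS19 against Tia1+/- 2 members (Gfap and Serpina3n) were, beside 12.4% of all genes. For P301S tau averaged over the Tia1 genotypes, all 4 tested reactive members had a positive log2 fold change, from 0.35 for Vim to 0.88 for Gfap, with a median of 0.63, against 0.10 for the homeostatic members. Without PS19 replicate 1 the values were 0.43 for Gfap, 0.24 for Vim, 0.70 for Serpina3n and 0.028 for Cd44. Without WT replicate 1 they were 1.34, 0.72, 1.04 and 0.66 in the same order. For Tia1+/- averaged over the tau genotypes, all 4 were negative, with a median of -0.45, against -0.036 for the homeostatic members. The interaction was 1.36 ± 0.571 for Vim, 1.35 ± 0.530 for Aqp4, -0.89 ± 0.345 for Slc1a2 and 0.50 ± 0.224 for Slc1a3, with adjusted p values of 0.190, 0.169, 0.164 and 0.211 by edgeR. Without WT replicate 1 these values were 0.59, 0.73, -0.63 and 0.29. When the bulb marker level was a covariate, in a fit that extrapolates, they were -1.83, -1.68, 0.77 and -0.68. Comparisons that share a group also share its libraries.

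**Figure D3:**
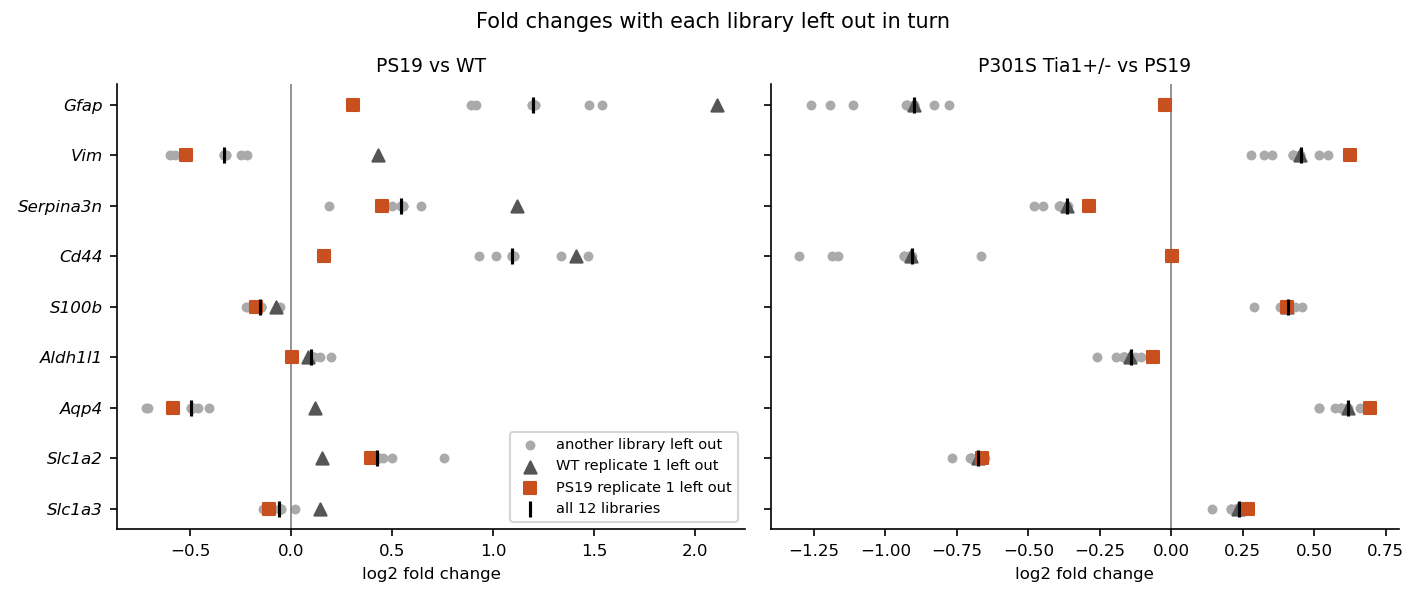
Log2 fold change (x axis) of the 9 tested members (y axis) for PS19 against WT and for P301S Tia1+/- against PS19, with all 12 libraries (black bar) and with each library left out in turn (points). Gfap moves from 1.19 to 0.30 without PS19 replicate 1 and to 2.11 without WT replicate 1 in the first panel, whereas S100b stays between 0.29 and 0.46 in the second.

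Other astrocyte and gliosis genes were grouped in lists, also chosen with earlier results of these data known. Of 24 further homeostatic astrocyte genes, such as the gap junction gene Gja1 and the glutamine synthetase gene Glul, 13 had a positive and 11 a negative log2 fold change in PS19 against WT, with a median of 0.0059 and none called. Of 8 genes that rise in reactive astrocytes of every kind (pan-reactive), 4 were positive and 4 negative, with a median of -0.08. Hspb1, a small heat shock protein of this list, was at 9.46 ± 4.58 CPM in WT and 3.69 ± 0.888 CPM in PS19 libraries, without overlap and with an adjusted p of 0.170 by edgeR. The median was 0.0039 over the 11 tested genes of the list linked to inflammatory (A1) astrocytes and -0.31 over 8 of the list linked to ischaemic (A2) astrocytes, and in neither did a gene pass the threshold in this comparison. Over 22 tested genes of gliosis signalling through gp130, STAT3, TGF-beta and NOTCH it was -0.11, and over 8 metallothionein and antioxidant genes 0.15. Mt1, a metal-binding protein that astrocytes make under stress, was at 119 ± 20.5 CPM in PS19 and 86.1 ± 4.67 CPM in WT libraries, without overlap and with an adjusted p of 0.157 by edgeR.

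Where a gene of these lists passed the threshold between a pair of groups, WT libraries were the higher group. Ppp1r3c, a glycogen-targeting subunit of protein phosphatase 1 that astrocytes express, was at 125, 134 and 132 CPM in WT, 83.5, 83.4 and 72.0 CPM in Tia1+/-, 97.2, 88.4 and 105 CPM in PS19 and 91.7, 85.7 and 78.6 CPM in P301S Tia1+/- libraries. Each library of the other groups was below the 3 WT libraries, WT replicate 1 included. Its log2 fold change was -0.71 ± 0.0930 for Tia1+/- against WT (adjusted p of 0.0156, edgeR) and -0.61 ± 0.0928 for P301S Tia1+/- against WT (adjusted p of 0.0188, edgeR), and -0.43 ± 0.0926 for PS19 against WT (adjusted p of 0.157, edgeR). The first of these calls was kept in 15 of 21 alternative fits and was lost, with other fits, without WT replicate 2 and without Tia1+/- replicates 1 or 2. The second was lost without WT replicate 2 and without any P301S Tia1+/- library. Smad3, which relays TGF-beta signals, was lower in P301S Tia1+/- (60.6 ± 4.86 CPM) than in WT libraries (101 ± 9.07 CPM; log2 fold change -0.74 ± 0.10, adjusted p of 0.0142, edgeR), a call kept in 16 of 21 fits. In the same comparison Ptgs2, the inducible cyclooxygenase, was at 18.8 ± 2.72 against 62.5 ± 9.98 CPM (-1.73 ± 0.328, adjusted p of 0.0357, edgeR), kept in 14 of 21 fits. Nefm, a neuronal filament subunit, was at 38.7 ± 2.22 against 106 ± 47.3 CPM (-1.45 ± 0.277, adjusted p of 0.0358, edgeR), kept in 10 of 21 fits. Each of these 3 calls was lost without WT replicate 2 and without P301S Tia1+/- replicates 1 or 3. The call of Nefm was also lost without WT replicate 3 and without Tia1+/- or PS19 replicates 1 or 2, and that of Ptgs2 without Tia1+/- replicate 2 or PS19 replicate 2, while both were lost without P301S Tia1+/- replicate 2. For Tia1+/- averaged over the tau genotypes, Ppp1r3c (log2 fold change -0.45, adjusted p of 0.0238, edgeR), Ptgs2 (-1.30, adjusted p of 0.0450) and Smad3 (-0.43, adjusted p of 0.0374) were lower than in the groups with both copies of Tia1. These calls were kept in 12, 10 and 9 of 20 fits, and all 3 were lost without any 1 of WT replicate 2, Tia1+/- replicates 1 and 2, PS19 replicates 1 and 3 and P301S Tia1+/- replicates 2 and 3.

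Among markers of other cells, all 8 microglia and all 8 activated microglia markers had a positive log2 fold change in PS19 against WT, with medians of 0.55 and 0.98 and none called. Without PS19 replicate 1 the summed activated microglia level of PS19 libraries was 84.5 and 104 CPM, against 73.8 to 92.7 CPM in WT. The 8 oligodendrocyte and myelin markers summed to between 1753 and 2670 CPM in WT and between 3182 and 4177 CPM in Tia1+/- libraries, and Cnp, a myelin enzyme, passed the threshold for Tia1+/- against WT (261 ± 25.8 against 148 ± 26.8 CPM, adjusted p of 0.0446, edgeR). That call was kept in 7 of 21 fits and was lost without WT replicate 1, without WT replicate 2, without any Tia1+/- library and without 5 of the 6 libraries of P301S mice. S100a5, an olfactory bulb gene, was at 92.2 ± 23.8 CPM in P301S Tia1+/- and 0.311 ± 0.250 CPM in PS19 libraries (adjusted p of 0.0435, edgeR), a call kept in 11 of 20 fits and lost without any of these 6 libraries and without Tia1+/- replicates 1 or 2. The part of these differences between libraries in the levels of Vim, Aqp4, Slc1a2 and Slc1a3 was examined only in the fits with a marker level as a covariate. The bulb marker level did not overlap between P301S Tia1+/- and PS19 libraries (mean log2 CPM of 5.91 to 6.18 and 0.931 to 1.71). Fits with that covariate therefore cannot separate it from genotype there.

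**Figure D4:**
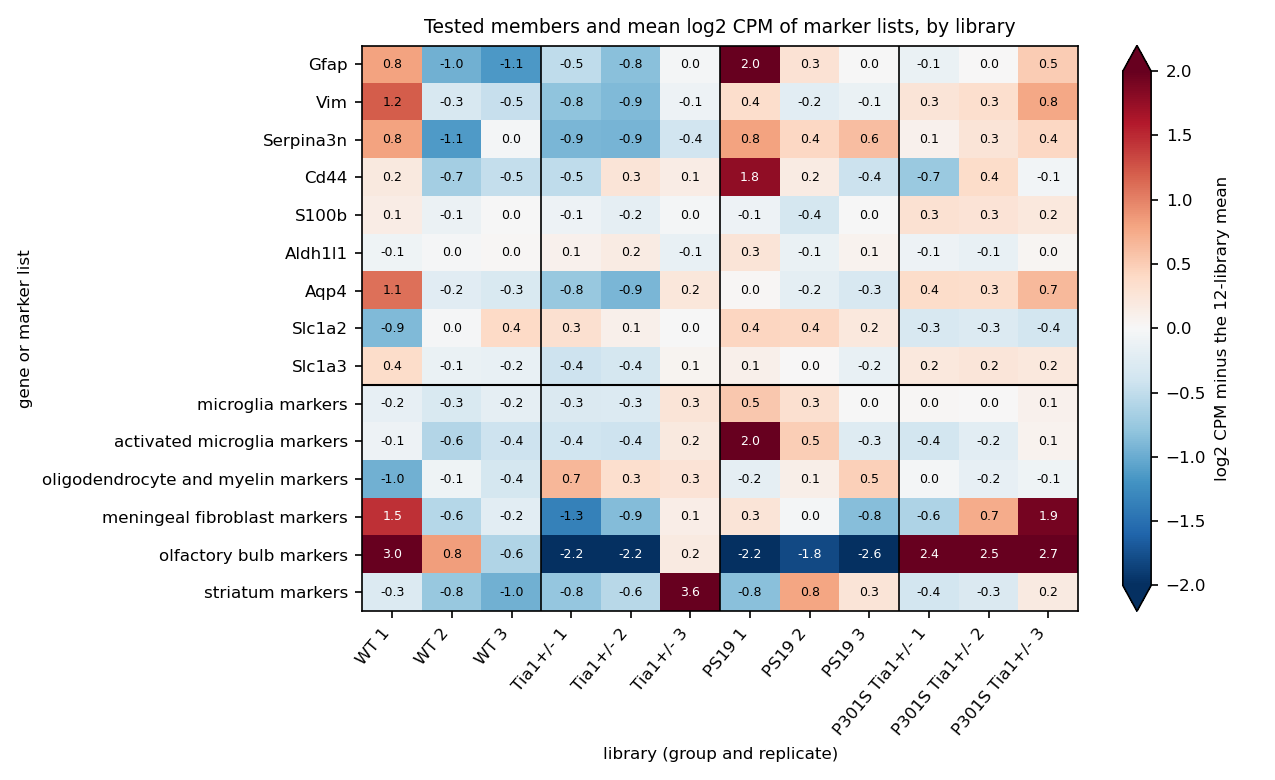
Log2 CPM of the 9 tested members (upper rows) and mean log2 CPM of 6 marker lists (lower rows), each minus its mean over the 12 libraries (columns, by group and replicate), in colour and as numbers. WT replicate 1 and the 3 P301S Tia1+/- libraries are high in olfactory bulb markers and low in Slc1a2, and PS19 replicate 1 is high in activated microglia markers (2.03 above the mean), Gfap and Cd44.

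The tested genes whose log2 CPM was most like a member's over the 12 libraries are given with Pearson's r as a description over 15440 genes. For Gfap these were Ggta1 (0.924), Usp18 (0.924), Ifi44 (0.923), Cd74 (0.923) and Capg (0.922). For Serpina3n they were Cdk2 (0.923), Ifnar2 (0.920), Tmem173 (0.914), Ednra (0.887) and Fkbp9 (0.864). For Slc1a2 they were Brdt (0.965), Spin1 (0.961), Lypd6 (0.960), Dpysl2 (0.957) and Cdh8 (0.957). For Aldh1l1 they were Adamts17 (0.889), Ifih1 (0.876), Dhps (0.871), Stap2 (0.865) and Pcnt (0.858). Libraries that stand apart enter all of these values.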

How the data were processed

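The deposited table held raw counts per gene, which the authors made from paired-end Illumina reads of stranded total RNA libraries (100 ng of cortical RNA) with TopHat2, the mm10 genome and featureCounts. The submitters' processing notes give TopHat2 2.0.6 and the study's methods name another version. Annotation, strand setting and treatment of multi-mapping reads are not given in the sources used here. Titles set the groups. Where nothing says which libraries came from separate litters or preparations, p values measure the spread between these libraries. The 10 members and all gene lists were chosen with earlier results of these data known. Counts were fitted in R 4.3.3 with edgeR 4.0.16 (TMM scaling, filterByExpr, 1 mean per group, all 12 libraries, quasi-likelihood F test, two-sided), with p adjusted by Benjamini-Hochberg over 15440 genes at a threshold of 0.05. CPM are counts divided by the scaled library size. Alternatives used DESeq2 1.42.0, other filters, covariates, a replicate block and left-out libraries. The genes named from other lists are those past the threshold (at most 3 a comparison) or, in lists with none, may be the gene of smallest p in any pair of groups. Genes most like a member are the 5 of highest correlation. Same-numbered libraries correlated above 0.1 in all 3 pairs of Tia1+/- with P301S Tia1+/- and in no other pair of groups. Scripts were tested on simulated data. Lengths and coordinates are of GENCODE M21 (GRCm38).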

Additional observations from a re-analysis of the deposited data

How the results depend on the processing

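With 3 libraries a group, leaving out 1 library moved many values, and the cause was not tested. Sign and threshold were compared for PS19 against WT, P301S Tia1+/- against PS19 and against Tia1+/-, Tia1+/- against WT, tau averaged and the interaction. Over all alternatives 1029 of the members' log2 fold changes kept sign and side of the threshold. A further 15 passed it with the same sign, and 72 had the opposite sign. Some of the 72 also passed it, such as Aqp4 for PS19 against WT with the olfactory bulb covariate. Numbers of members called, 0 of 9 with all libraries, were as follows. DESeq2 called 1 for P301S Tia1+/- against PS19, 1 for P301S Tia1+/- against Tia1+/-, 1 for the interaction and 2 for any difference, beside 805, 416, 1206 and 1834 genes in all. The olfactory bulb covariate called 4 for PS19 against WT, 2 for P301S Tia1+/- against PS19, 3 for Tia1+/- averaged, 1 for the interaction and 5 for any difference, beside 1101, 1297, 897, 1480 and 2312 of all 15440 genes. The 6 libraries compared called 3 for P301S Tia1+/- against PS19, beside 3025 genes. With each library left out, calls ran from 0 to 2 for P301S Tia1+/- against PS19, 0 to 3 against Tia1+/-, 0 to 1 against WT, 0 to 1 for Tia1+/- averaged, 0 to 1 for the interaction and 0 to 4 for any difference. Without both WT replicate 1 and PS19 replicate 1, chosen after seeing the data, they were 1, 1 and 2 for P301S Tia1+/- against PS19, Tia1+/- and WT.

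Over all pairs of groups, 7 of 18 same-numbered pairs of libraries correlated above 0.1 (median -0.0597), and only Tia1+/- with P301S Tia1+/- had all 3 pairs above it (0.123, 0.134 and 0.240). A fit of all libraries with the replicate block called 0 members in each comparison, that one included.

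Log2 fold changes with the opposite sign under the olfactory bulb covariate were, for PS19 against WT, Vim 1.25, Aldh1l1 -0.11, Aqp4 1.0, Slc1a2 -0.29 and Slc1a3 0.50, for P301S Tia1+/- against PS19, Vim -1.56, Aldh1l1 0.17, Aqp4 -1.35, Slc1a2 0.47 and Slc1a3 -0.54, for Tia1+/- against WT, Gfap 1.09, Vim 0.27, Aldh1l1 -0.094, Aqp4 0.34, Slc1a2 -0.30 and Slc1a3 0.14, for P301S Tia1+/- against Tia1+/-, Gfap -1.23, Vim -0.58, Serpina3n -9.01e-07, Aldh1l1 0.15, Aqp4 -0.68, Slc1a2 0.49 and Slc1a3 -0.19, for tau averaged, Aldh1l1 0.017 and Slc1a2 0.10, and for the interaction, Vim -1.83, Serpina3n -1.45, Aldh1l1 0.26, Aqp4 -1.68, Slc1a2 0.77 and Slc1a3 -0.68. Under the myelin covariate they were, for PS19 against WT, Vim 0.71, Aqp4 0.43 and Slc1a3 0.31, for Tia1+/- against WT, Gfap 1.98, Vim 0.54, Serpina3n 0.47, Aqp4 0.52, Slc1a2 -0.30 and Slc1a3 0.26, for P301S Tia1+/- against Tia1+/-, Gfap -0.60, and for the interaction, Vim -0.42, Serpina3n -1.15, Aqp4 -0.21 and Slc1a3 -0.16. Without WT replicate 1 and PS19 replicate 1 they were, for PS19 against WT, Vim 0.22, Aldh1l1 -0.026, Aqp4 0.011 and Slc1a3 0.078, for P301S Tia1+/- against PS19, Cd44 0.0073, for Tia1+/- against WT, Gfap 0.63 and Slc1a2 -0.067, and for the interaction, Serpina3n -0.054.

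With each library left out in turn, sign was not kept, for PS19 against WT, by Vim (-0.60 to 0.43), Aqp4 (-0.72 to 0.12) and Slc1a3 (-0.14 to 0.14), for Tia1+/- against WT, by Gfap (-0.59 to 0.64) and Slc1a2 (-0.051 to 0.54), for P301S Tia1+/- by Cd44 against Tia1+/- (-0.36 to 0.16) and PS19 (-1.30 to 0.0041), for tau averaged, by Aldh1l1 (-0.064 to 0.033) and Slc1a2 (-0.16 to 0.13), and for the interaction, by Gfap (-1.54 to 0.25) and Serpina3n (-0.15 to 0.79). Genes called among all tested ranged over the alternatives from 0 to 1101 for PS19 against WT, 6 to 3025 for P301S Tia1+/- against PS19, 6 to 1512 for Tia1+/- against WT, 0 to 1335 for P301S Tia1+/- against Tia1+/-, 9 to 1637 for P301S Tia1+/- against WT, 4 to 37 for PS19 against Tia1+/-, 0 to 76 for tau averaged, 12 to 981 for Tia1+/- averaged, 0 to 1480 for the interaction and 6 to 2312 for any difference.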
